A study of Mus musculus with 15 samples.

Results

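OT-II cells of wild-type (WT) recipients that had lost CD62L after airway priming were compared, gene by gene, with naive OT-II cells. The libraries were chosen by the names of their columns in the deposited table of raw read counts: 3 libraries of CD62L- cells from WT recipients and 3 libraries of naive cells, 6 of the 15 libraries of the series. Every gene of the table was included. All cells were mouse CD4 T cells that carried the congenic marker CD45.1 and a transgenic receptor, OT-II, that recognises a peptide of ovalbumin (OVA). The WT CD62L- cells had been injected, as naive cells, into C57BL/6 mice. Starting 24 hours later, the recipients received 3 intranasal doses of OVA (60 µg) mixed with papain (30 µg), a plant cysteine protease. On day 5 after immunisation, donor cells that were CD44hi and CD62L- were sorted from the mediastinal lymph node, which drains the lung. The naive cells were CD44lo and CD62L+, came from superficial lymph nodes and spleens of untreated CD45.1×OT-II mice, and were not transferred. The remaining 9 libraries held WT CD62L+ cells and the CD62L- and CD62L+ cells of Batf3-/- recipients, treated alike. Those recipients lack a transcription factor that type 1 conventional dendritic cells need, while the donor cells carry it. The labels give no age or sex and tie no library to an animal, so p-values measure the spread between libraries, which may be partly technical. Transfer, host, organ of origin and sort gate all changed along with priming, and their effects cannot be told apart here.

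A naive CD4 T cell patrols lymphoid organs, which it enters with CD62L and the chemokine receptor CCR7 and leaves along a gradient of sphingosine 1-phosphate. It stays small and out of the cell cycle, and it depends on interleukin 7 and contact with self peptides for survival. Antigen on a dendritic cell triggers the receptor, the cell divides, and cytokines steer it towards a helper fate. Follicular helper (Tfh) cells move to B cell follicles and help antibody responses, T helper 1 (Th1) cells make interferon gamma, T helper 2 (Th2) cells make interleukins 4, 5 and 13, and T helper 17 (Th17) cells make interleukin 17. Papain in the airway is a common model of a type 2 allergic response.

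The 3 WT CD62L- libraries held 64938211, 62386293 and 38082967 counts, and the 3 naive libraries 98200404, 78288983 and 77022555. On the first principal component of all 15 libraries, which held 31.8% of the variance, WT CD62L- libraries lay at 45.3 to 59.5 and naive libraries at -188 to -180. On the second component the shallowest library, the third WT CD62L- one, was at -160, while the other WT CD62L- libraries were at -54.4 and -29.6. Ribosomal RNA loci took 4.33, 9.945 and 10.2% of counts in WT CD62L- libraries and 4.62, 8.44 and 8.36% in naive libraries, in order of replicate number. The first library of each group was thus the lowest. Mitochondrially encoded genes took 1.38 to 2.37% in WT CD62L- and 1.21 to 1.62% in naive libraries. Cd44 went with the sort. It had 216, 266 and 286 normalised counts (CPM, the count divided by the TMM-scaled library size in units of 1e6) in WT CD62L- cells and 18.4, 27 and 27.1 CPM in naive cells. Because the cells were sorted on its protein, this difference is a check and not a result. Of 10 markers of CD4 T cells all were detected, and their summed level ran from 18821 to 20242 CPM in WT CD62L- and from 14323 to 15470.3 CPM in naive libraries. In bulk RNA, fewer cells of one kind and less RNA per cell cannot be told apart.

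In all, 19942 of 49492 genes passed the filter on low counts. edgeR's quasi-likelihood test, fitted on all 15 libraries with Benjamini-Hochberg adjustment at 0.05, called 6004 of them between WT CD62L- and naive cells, which was 30.1% of the genes tested. Higher calls numbered 3370 (16.9%) and lower calls 2634 (13.2%). These shares over all genes tested are the base against which the counts of list members below are to be read. The median log2 fold change of all genes tested was -0.08. The higher genes reached further from the naive level than the lower ones did: 1109 genes were at least 4-fold higher and 559 at least 4-fold lower, and 816 were at least 8-fold higher and 311 at least 8-fold lower. Of the genes called higher, 241 had no count in any naive library. Of the genes called lower, 106 had no count in any WT CD62L- library. A gene without naive counts could only be called higher, and a gene without WT CD62L- counts only lower. This limits what the list counts and medians below can show. The 2 groups of libraries did not overlap for 5836 of the 6004 genes called and for 9022 of all genes tested.

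**Figure D1:**
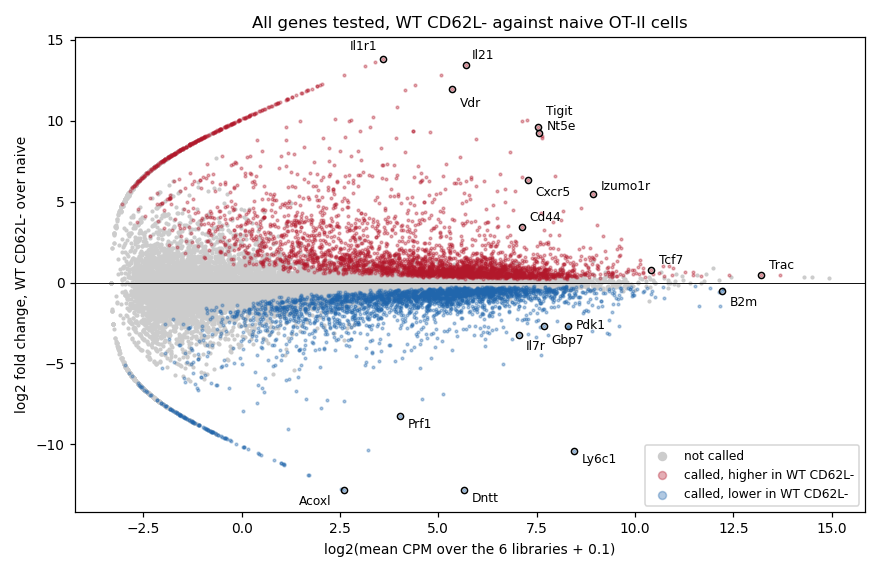
Log2 fold change, WT CD62L- over naive (y axis), against the log2 of the mean CPM over the 6 libraries plus 0.1 (x axis) for the 19942 genes tested. Red points were called higher and blue points lower in WT CD62L- cells, and grey points were not called. The curved outer edges are genes with no counts in 1 of the groups, whose fitted fold change depends on the prior count.

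Several of the largest increases were genes of signalling proteins with no count or almost none in naive cells. Wnt10a, a Wnt ligand, had 9.79, 6.21 and 6.11 CPM in WT CD62L- cells and none in naive cells. Taking 3 counts in the naive group as the most that 0 allows, it was at least 683-fold higher. Ptpn5, a tyrosine phosphatase, and Rapgef5, an exchange factor for the small GTPase Rap, were likewise silent in naive cells and at least 747-fold and 663-fold higher. Chst2, a sulfotransferase that modifies carbohydrates, had 46.4, 46.3 and 34.4 CPM in WT CD62L- cells and a total of 2 counts in the naive group, 5841 times as much (95% counting interval 1616 to 48240.1). Vdr, the nuclear receptor for vitamin D, had 76.9, 85.7 and 83 CPM in WT CD62L- cells and 0.0191, 0 and 0.0369 CPM in naive cells. The remaining increases of this size were in Il21, Il1r1, Gna14, Cela1, Sostdc1, Mpp2 and Ces2c. Because the cDNA was amplified, these intervals and limits hold counting error alone.

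Among the largest decreases, Ly6c1 stood out by its level. This surface protein of lymphocytes had 0.564, 0.63 and 0.278 CPM in WT CD62L- cells and 639, 753 and 709.8 CPM in naive cells, a 1358-fold decrease (log2 fold change -10.41, SE 0.54, adjusted p = 3.39e-09). Reads of Ly6c1 are hard to tell from those of its near-identical neighbour Ly6c2. Tlr12, a Toll-like receptor, had 2 counts over the WT CD62L- group and 16.4, 23.7 and 14.6 CPM in naive cells, 1480.1 times lower (95% counting interval 409.5 to 12225). Gbp11, a guanylate-binding protein induced by interferon, had 0.504, 0.232 and 0.194 CPM in WT CD62L- cells and 48.2, 38.6 and 55.2 CPM in naive cells, 146-fold lower (adjusted p = 2.07e-08). The potassium channel genes Kcnh3 and Kcnj16 fell 159-fold and 153-fold. The others were Dntt, Acoxl, Adamts14, Hoxa7, Tbc1d16, Prf1 and Tmem108.

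Ranked by level per kilobase of exon, where genes can be compared with each other, the largest gains included structural and secretory transcripts. The cytoskeletal genes Actb, Tmsb4x and Pfn1 rose by 1.4-fold, 1.36-fold and 1.58-fold. Trac, the constant region of the T cell receptor alpha chain, averaged a per-length level of 22285 in WT CD62L- cells and 17402 in naive cells. Srgn, the proteoglycan of secretory granules, averaged 1126 against 279 on this scale, and Rnaset2a, a ribonuclease, 1762 against 612. The largest losses included genes of antigen presentation. B2m, the light chain of class I molecules, averaged a per-length level of 8642 in WT CD62L- cells and 13232 in naive cells. The heavy chain genes H2-K1 and H2-D1 fell 1.52-fold and 1.3-fold, with the reservation that reads of class I genes are shared between near-identical members. Malat1, a nuclear noncoding RNA, fell 2.73-fold and Ltb, the beta chain of lymphotoxin, 1.95-fold. Trbc2 and Nfkbia also ranked among these genes, but their calls did not survive the removal of single libraries. Trbc2, at a log2 fold change of -0.23 with all libraries, had an adjusted p = 0.0629 without the second naive library and 0.0582 without the third WT CD62L- library. Nfkbia (1.73 with all libraries) missed the threshold without any 1 of the naive libraries (adjusted p = 0.0645 to 0.086) and without the third WT CD62L- library (0.106).

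Follicular helper genes were higher almost throughout. Of 22 tested members of a list of 23, 19 were called higher and 1 lower, and the median log2 fold change was 4.10, against -0.08 over all genes tested. Cxcr5, the receptor that leads cells to follicles, had 322, 324 and 277 CPM in WT CD62L- cells and 4.17, 4.09 and 3.32 CPM in naive cells. Pdcd1, the inhibitory receptor PD-1 that Tfh cells carry at high levels, had 310.3, 284 and 235 CPM in WT CD62L- cells and 4.62, 1.22 and 2.94 CPM in naive cells. The costimulatory receptor gene Icos followed the same course, with 475, 563 and 624 CPM in WT CD62L- cells and 23.2, 24.6 and 30.1 CPM in naive cells. Among regulators, Tox2 had 221, 325 and 291 CPM in WT CD62L- cells and 0.516, 0.0737 and 0.172 CPM in naive cells, and Maf, which drives interleukin 21 and interleukin 4, had 135, 139 and 152 against 1.45, 1.6 and 2.56 CPM. Ascl2, which can switch on Cxcr5, was low but present in all 3 WT CD62L- libraries (1.96, 1.03 and 1.47 CPM) and had no naive counts. Angptl2, a secreted glycoprotein, had 377, 398 and 409.8 CPM in WT CD62L- cells and 0.736, 0.946 and 0.763 CPM in naive cells, an increase of 485-fold (adjusted p = 8.41e-13; log2 fold change 8.92, SE 0.20). The exception was Cd40lg, the ligand through which helper cells stimulate B cells. It had 160.2, 155 and 135 CPM in WT CD62L- cells and 231, 241 and 231 CPM in naive cells and fell 1.56-fold (adjusted p = 0.000279). Il6ra, the receptor of interleukin 6, overlapped between the groups (adjusted p = 0.669), while Il6st, its signalling partner, rose 2.9-fold.

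Type 2 genes were higher as a list, without the full cytokine set. Of 18 tested genes, 12 were called higher and 1 lower (median log2 fold change 3.30). Il4 had 29.2, 31.6 and 29.2 CPM in WT CD62L- cells and 0.0669, 0.0983 and 0.0123 CPM in naive cells. The other classical type 2 cytokines were near or at 0: Il5 and Il9 had no counts in either group, and Il13 had counts in a single WT CD62L- library and did not pass the filter. Receptor genes were better represented. Il17rb, a subunit of the interleukin 25 receptor, had 62.2, 63.3 and 73.3 CPM in WT CD62L- cells and 2.55, 4.18 and 3.05 CPM in naive cells. Il1rl1, the receptor for interleukin 33, had 2.85, 1.68 and 4.53 CPM in WT CD62L- cells and no naive counts, at least 248-fold higher. Crlf2, a subunit of the receptor for thymic stromal lymphopoietin, rose 4.98-fold (adjusted p = 8.99e-05). The chemokine receptor genes Ccr4 and Ccr8, found on Th2 cells, rose 19.6-fold and 30.5-fold. Pparg and Areg, which encode a nuclear receptor and a growth factor, were detected at 1.69, 1.34 and 1.11 CPM and 0.504, 1.88 and 1.22 CPM in WT CD62L- cells and had no naive counts. The interleukin 4 receptor Il4ra fell to 41.6, 67.2 and 46.4 CPM in WT CD62L- cells, against 210.1, 263 and 265 CPM in naive cells (4.76-fold, adjusted p = 1.21e-05), and Stat6, which it signals through, did not pass (adjusted p = 0.16).

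Type 1 and cytotoxic genes moved in both directions. Of 21 tested genes, 8 were called higher and 4 lower (median log2 fold change 1.05). Ifng, the cytokine of Th1 cells, had 3.26, 5.82 and 4.97 CPM in WT CD62L- cells and none in naive cells, at least 408-fold higher. Cxcr3, a chemokine receptor of Th1 cells, had 12.4, 16.6 and 11.9 CPM in WT CD62L- cells and 0.363, 0 and 0.492 CPM in naive cells, and Tbx21, the Th1 regulator T-bet, had 3.86, 3.48 and 4.22 against 0.191, 0.221 and 0 CPM. The decreases were in genes of killing and interleukin 18 sensing: Prf1, which encodes perforin, had 0, 0 and 0.416 CPM in WT CD62L- cells and 35.2, 31.7 and 29.4 CPM in naive cells, and Il18r1 had 1.22, 2.24 and 4 against 14.8, 13.4 and 19.8 CPM (6.5-fold lower). Ctsw, a protease of cytotoxic cells, fell 2.16-fold. Gzma fell as well (log2 fold change -3.92), but missed the threshold without the first or the second WT CD62L- library (adjusted p = 0.0547 and 0.0688). Gzmb had 4.57, 4.99 and 3.69 CPM in WT CD62L- cells and 0.42, 0 and 0 CPM in naive cells and did not pass (adjusted p = 0.0558), but it passed without the first naive library (0.0133), with DESeq2 (0.0157), limma's voom (0.025) or a stricter filter on low counts (0.0415), and in a fit of the 6 libraries only (0.0249). Id2, which opposes E proteins, rose 4.71-fold.

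Of the Th17 list, 6 of 11 tested genes were called higher and none lower (median log2 fold change 3.57). They were Il1r1, Batf, Ahr, Rora, Ccr6 and Cxcr6, none of them a Th17 cytokine. Il1r1, the receptor for interleukin 1, had 20, 18.6 and 33.3 CPM in WT CD62L- cells and no naive counts. Batf, an AP-1 factor needed for Tfh, Th2 and Th17 cells, had 104, 112 and 78.9 CPM in WT CD62L- cells and 29.7, 41.7 and 34.9 CPM in naive cells. Cxcr6, a receptor of tissue-homing T cells, had 40, 21.8 and 27.4 CPM in WT CD62L- cells and 0.0191, 0.282 and 0.751 CPM in naive cells. Il17a had 0, 0.265 and 0.389 CPM in WT CD62L- cells and no naive counts and did not pass (adjusted p = 0.0566), except with DESeq2 (0.0209) or without the first WT CD62L- library (0.035).

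The cytokine and chemokine list held 27 genes, of which 19 passed the filter on low counts. Members with no naive counts, such as Ifng and Il10, could only be called higher. Of the 19 tested genes, 12 were called higher and none lower (median log2 fold change 3.55). Besides Il21, Il4 and Ifng they included Il10, an inhibitory cytokine, with 4.58, 6.17 and 7.38 CPM in WT CD62L- cells and no naive counts (at least 515-fold higher). Lif, a cytokine of the interleukin 6 family, had 25.6, 29.6 and 31 CPM in WT CD62L- cells and 0.0191, 0 and 0.566 CPM in naive cells. Penk, which encodes the opioid precursor proenkephalin, had 14.8, 13.4 and 17.7 CPM in WT CD62L- cells and 0, 0.172 and 0 CPM in naive cells. Tnf rose 4.12-fold and Tgfb3 9.24-fold. Il2, the growth factor of activated T cells, was low in both groups, with 0.964, 2.87 and 1.39 CPM in WT CD62L- cells and 0.325, 0.184 and 0.172 CPM in naive cells, and passed (adjusted p = 0.000148). Il16, a chemoattractant for CD4 T cells, had 654, 582 and 477 CPM in WT CD62L- cells and 689, 669 and 680 CPM in naive cells and did not pass (adjusted p = 0.285).

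Of 23 cytokine receptor genes, 8 were called higher and 7 lower (median log2 fold change -0.01). Il7r, the receptor that keeps naive cells alive, had 20.7, 27.3 and 27.7 CPM in WT CD62L- cells and 234, 239.6 and 239 CPM in naive cells, a 9.41-fold decrease (log2 fold change -3.23, SE 0.19, adjusted p = 1.22e-08). Il2ra, the alpha chain that gives high affinity for interleukin 2, also fell, to 5.07, 3.53 and 2.94 CPM in WT CD62L- cells, against 20.4, 14.1 and 19.5 CPM in naive cells. Il2rb, the beta chain shared by the interleukin 2 and 15 receptors, went the other way, with 455, 550.3 and 482 CPM in WT CD62L- cells and 5.51, 6.23 and 3.68 CPM in naive cells (96.3-fold higher). The shared gamma chain Il2rg did not pass (adjusted p = 0.148). Both chains of the interferon gamma receptor fell, Ifngr1 by 2.44-fold and Ifngr2 by 2.25-fold. Il10ra and Il9r rose, and Il21r, the receptor for interleukin 21, fell 1.88-fold.

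**Figure D2:**
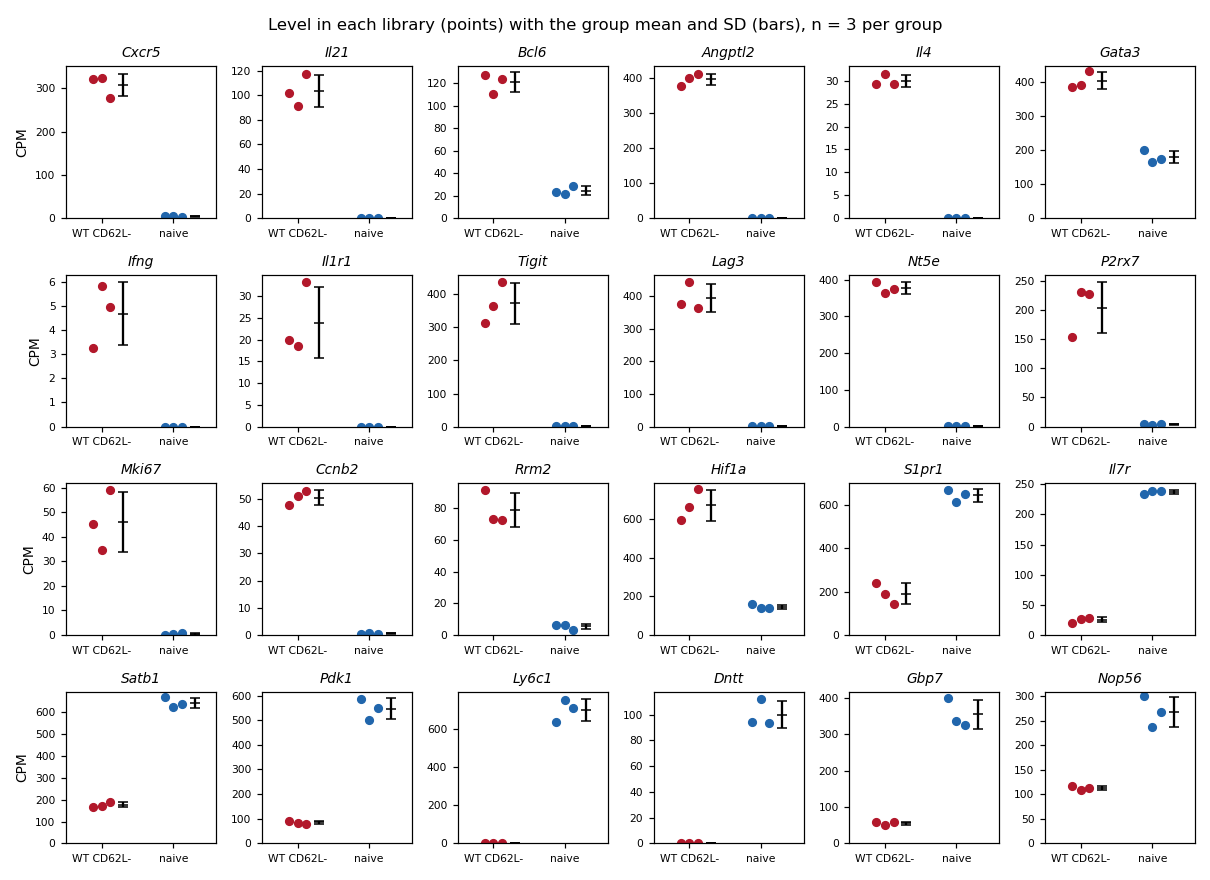
CPM (y axis, linear, from 0) of 24 genes in each of the 3 WT CD62L- libraries (red, left) and the 3 naive libraries (blue, right), with the group mean and SD in black. For each gene shown the 2 groups of libraries do not overlap.

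Inhibitory receptors and regulatory T cell genes rose without Foxp3. Of 13 coinhibitory receptor genes, 9 were called higher and 1 lower (median log2 fold change 2.10). Tigit had 314, 366 and 438 CPM in WT CD62L- cells and 0.449, 0.221 and 0.751 CPM in naive cells, and Lag3, which binds class II molecules, had 376, 444 and 365 against 0.994, 0.27 and 0.886 CPM. Cd160 had 73.5, 86.4 and 87.5 CPM in WT CD62L- cells and 0.994, 1.46 and 0.96 CPM in naive cells. Havcr2 (TIM-3) stayed at or below 0.0555 CPM in WT CD62L- libraries and 0.639 CPM in naive libraries. The decrease was Lair1, a receptor for collagen, at 1.04, 0.0332 and 2 CPM in WT CD62L- cells and 12.5, 12 and 10.6 CPM in naive cells (adjusted p = 0.0118). In the regulatory T cell list 12 of 18 genes were called higher and 2 lower (median log2 fold change 2.32), the lower ones being Foxp3, the defining factor of that lineage, and Il2ra. Foxp3 had 7.82, 6.25 and 9.05 CPM in WT CD62L- cells and 13.4, 18.3 and 16.6 CPM in naive cells, and overlapping genes on the other strand, among them Ccdc22, share part of its exons. Izumo1r, the folate receptor FR4 of regulatory, anergic and Tfh cells, had 1011, 1001 and 857 CPM in WT CD62L- cells and 22.3, 21 and 21.4 CPM in naive cells, an increase of 44.3-fold (adjusted p = 3.43e-14; log2 fold change 5.47, SE 0.09). Ctla4 rose 51.5-fold, Ikzf2 (Helios) 90.9-fold and Ebi3, a subunit of interleukins 27 and 35, was at 13.8, 14.1 and 11.4 CPM against 3 counts in the naive group.

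Of 23 costimulatory and TNF family genes, 12 were called higher and 4 lower (median log2 fold change 0.56). Tnfrsf4, which encodes OX40, had 125, 102 and 99 CPM in WT CD62L- cells and 2.14, 4.22 and 2.89 CPM in naive cells. Tnfsf11, the ligand RANKL, had 115, 120 and 129 CPM in WT CD62L- cells and 2.19, 1.82 and 1.8 CPM in naive cells. Tnfsf8, the ligand of CD30, rose 5.21-fold and Cd28 2.17-fold. The genes that fell were Tnfrsf1a, a receptor of TNF, Tnfrsf25, the receptor of TL1A, Ltb and Cd40lg, by 3.13-fold, 3.47-fold, 1.95-fold and 1.56-fold. Cd27 was high in both groups (532, 520.2 and 412 CPM in WT CD62L- and 563, 545 and 571 CPM in naive cells) and did not pass (adjusted p = 0.147).

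Genes of lymph node entry, retention and exit were divided, with 5 of 16 called higher and 7 lower (median log2 fold change -0.27). S1pr1, the receptor that draws cells out of lymphoid organs, had 239, 191 and 144 CPM in WT CD62L- cells and 671, 613 and 652 CPM in naive cells. Selplg, the ligand of P-selectin, fell 2.71-fold and Itgb7, an integrin subunit for gut homing, 1.99-fold. Itgal and Itgb2, the 2 chains of the integrin LFA-1, rose 2.86-fold and 1.65-fold. Ccr7 had 712, 903 and 969 CPM in WT CD62L- cells and 1217, 1214 and 1158 CPM in naive cells. These values did not overlap, but the difference did not pass in the fit of all 15 libraries (adjusted p = 0.212). It passed in a fit of the 6 libraries only (0.0339). Gpr183, a receptor for oxysterols that positions T cells at follicle borders, overlapped between the groups, with 272, 273 and 271 CPM in WT CD62L- and 279, 268 and 276 CPM in naive cells.

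Of 25 tested genes of effector migration, 18 were called higher and 2 lower (median log2 fold change 2.25). Anxa2, a calcium-dependent membrane-binding protein, had 155, 142 and 126 CPM in WT CD62L- cells and 5.97, 6.9 and 5.54 CPM in naive cells, and its partner S100a10 rose 2.97-fold. S100a6 had 24.8, 29.2 and 22.3 CPM in WT CD62L- cells and 0.115, 0.0983 and 0.271 CPM in naive cells. Itgb1, the beta 1 integrin chain, had 344, 377 and 399.5 CPM in WT CD62L- cells and 51.2, 42.2 and 22.8 CPM in naive cells. Both decreases were steep. Ccr9, the receptor for the gut and thymus chemokine CCL25, had 0, 0.73 and 1.17 CPM in WT CD62L- cells and 61.9, 76.5 and 67.8 CPM in naive cells, and Itgb3, the beta 3 integrin chain, had 6.61, 11.9 and 15.6 against 96.1, 107 and 121 CPM. Part of the exons of Ccr9 lies under noncoding genes whose reads cannot be separated from its own.

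Genes of naive cells and quiescence fell, 19 of 29 with 2 called higher (median log2 fold change -0.77). Satb1, a chromatin organiser of T cells, had 168, 172 and 191 CPM in WT CD62L- cells and 668, 625 and 635 CPM in naive cells. Pik3ip1, an inhibitor of PI3 kinase, had 85.1, 80.8 and 77.4 CPM in WT CD62L- cells and 569, 509.5 and 551 CPM in naive cells (6.69-fold lower, adjusted p = 1.92e-11). Lef1, a partner of Tcf7 in early T cells, fell 2.19-fold, while Tcf7 itself rose 1.68-fold and Id3, an inhibitor of E proteins, 2.79-fold. The antiproliferative genes Btg1, Btg2 and Tob1 did not pass (adjusted p = 0.906, 0.22 and 0.674), and neither did Foxo1 or Bach2. Markers of recent exit from the thymus also fell, 7 of 14 tested with none higher (median log2 fold change -0.83). Dntt, the terminal transferase of receptor rearrangement, had 2 counts in all in the WT CD62L- group and 94.5, 112 and 93.6 CPM in naive cells. Cd8b1, one chain of the CD8 coreceptor, had 12, 18.8 and 16.4 CPM in WT CD62L- cells and 48, 56.1 and 48.2 CPM in naive cells. Cd8a stayed below 1.5 CPM in each of the 6 WT CD62L- and naive libraries. Rag1 had no counts in either group.

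Of 32 genes of the proximal T cell receptor pathway, 21 were called higher and 6 lower (median log2 fold change 0.66). Zap70, the kinase recruited to the receptor, rose 2.39-fold, and Fyn 2.95-fold. Malt1, a protease that links the receptor to NF-kappa B, had 209, 237 and 269.9 CPM in WT CD62L- cells and 45, 51.8 and 58.7 CPM in naive cells. Ptpn7 and Ubash3b, phosphatases that damp the signal, rose 4.38-fold and 5.25-fold. Grap2, an adaptor, had 16.9, 15 and 13.1 CPM in WT CD62L- cells and 46, 46.6 and 47.3 CPM in naive cells and fell 3.11-fold (adjusted p = 2.01e-06). Of 28 early response genes 15 were called higher and none lower (median log2 fold change 1.67). Egr2, Irf4, Nfatc1 and the phosphatase Dusp6 rose 14.2-fold, 12.8-fold, 11.7-fold and 11-fold. Nr4a1, a reporter of recent receptor signals, had 428, 487 and 418 CPM in WT CD62L- cells and 135, 128 and 148 CPM in naive cells. Jun, Junb and Jund did not pass (adjusted p = 0.782, 0.163 and 0.329), except Junb in a fit of the 6 libraries only (0.0117).

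**Figure D3:**
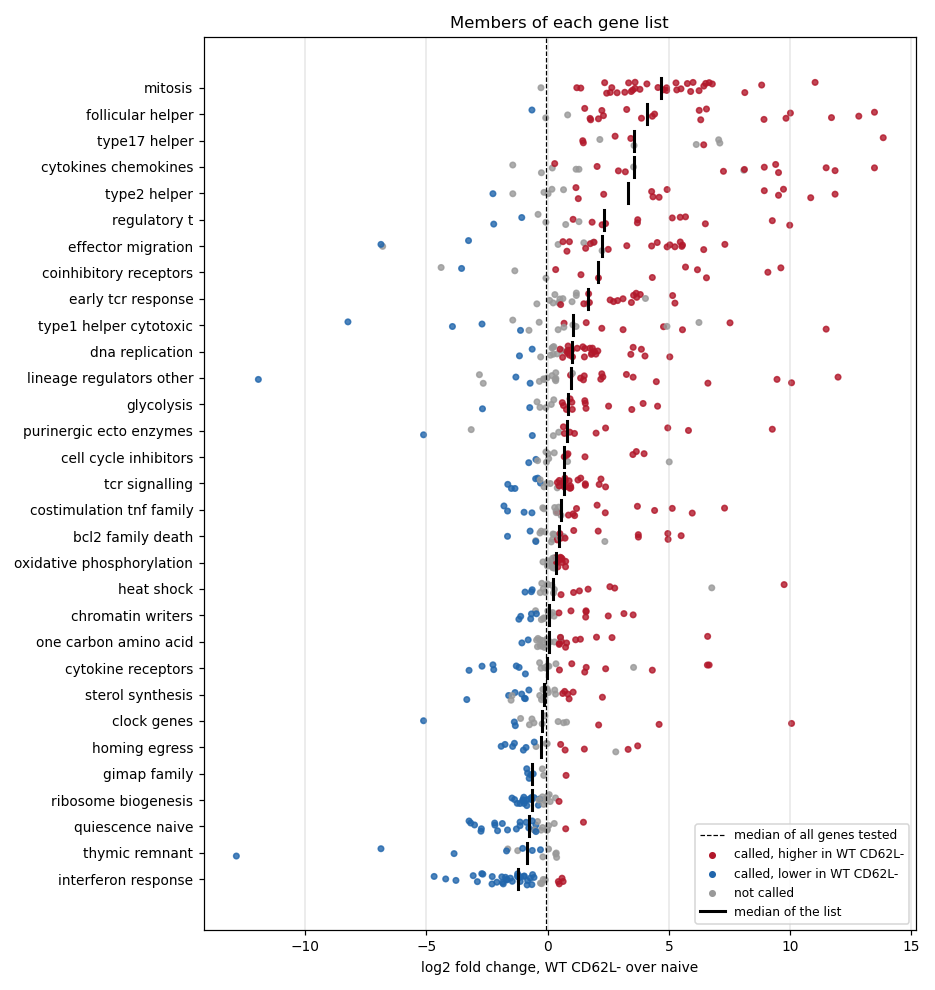
Log2 fold change, WT CD62L- over naive (x axis), of the members of 31 gene lists (rows, ordered by the list's median). Points are genes, red if called higher, blue if called lower and grey if not called, black bars are medians, and the dashed line at -0.08 is the median of all genes tested.

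Mitosis genes gave the most complete gain. Of 34 genes, 33 were called higher and none lower (median log2 fold change 4.67). The summed level of the list was 901, 849 and 849 CPM in WT CD62L- libraries and 91.5 to 103 CPM in naive libraries. Ccnb2, a mitotic cyclin, had 47.7, 51 and 52.9 CPM in WT CD62L- cells and 0.42, 0.897 and 0.344 CPM in naive cells. Ube2c, which helps degrade cyclins at anaphase, had 22.4, 26.3 and 20.4 CPM in WT CD62L- cells and 0.229, 0.197 and 0.369 CPM in naive cells (87-fold higher, adjusted p = 7.57e-10). Mki67, the gene of the proliferation antigen Ki-67, had 45.2, 34.4 and 58.8 CPM in WT CD62L- cells and 0.134, 0.368 and 0.775 CPM in naive cells. The member not called was Kif23, a kinesin of cytokinesis, at 13, 16.2 and 20.1 CPM in WT CD62L- cells and 19.4, 22.8 and 17.1 CPM in naive cells (adjusted p = 0.314).

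Promoters of mitosis genes are known for the cell cycle genes homology region, or CHR element, through which they are repressed in resting cells. The letters TTTGAA were searched on both strands in the 250 bases before the RefSeq start of each gene (build GRCm38.p6). They were present for 10 of 28 mitosis genes with a promoter entry (35.7%) and for 18.3% of 27025 genes. All 10 genes with a match were called higher, with a median log2 fold change of 5.40, as were 17 of the 18 without one, with a median of 3.85. A match is a run of letters and not a measured binding site. The 80 bases before the start of 4 of these genes are shown on the gene's own strand because they hold the match close to the start, with the element in capitals.
Cdk1 (chr10:69352913-69352992, minus strand): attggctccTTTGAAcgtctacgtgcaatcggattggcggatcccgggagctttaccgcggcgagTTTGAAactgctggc
Kif11 (chr19:37376302-37376381, plus strand): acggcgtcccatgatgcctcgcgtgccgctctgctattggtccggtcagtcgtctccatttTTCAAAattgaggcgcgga
Top2a (chr11:99024190-99024269, minus strand): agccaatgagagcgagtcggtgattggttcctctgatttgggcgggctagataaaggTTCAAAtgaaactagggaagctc
Ube2c (chr2:164769849-164769928, plus strand): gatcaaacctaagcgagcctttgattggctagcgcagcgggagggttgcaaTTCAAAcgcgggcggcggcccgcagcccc
Cdk1, the main mitotic kinase, had 9.92, 14.2 and 11 CPM in WT CD62L- cells and 0.191, 0 and 0.394 CPM in naive cells. Kif11, the motor of the bipolar spindle, had 34.9, 57 and 45.6 CPM in WT CD62L- cells and 0.803, 0.344 and 0.64 CPM in naive cells. Top2a, the topoisomerase that untangles chromosomes, had 91.1, 84.1 and 104 CPM in WT CD62L- cells and 4.03, 1.38 and 3.86 CPM in naive cells.

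DNA replication genes rose to a smaller extent, 25 of 35 with 2 called lower (median log2 fold change 1.0). Rrm2, the regulated subunit of ribonucleotide reductase, had 91.3, 73 and 72.7 CPM in WT CD62L- cells and 6.18, 6.56 and 3.47 CPM in naive cells. Uhrf1, which couples DNA methylation to replication, had 36.2, 46.5 and 34.4 CPM in WT CD62L- cells and 4.06, 4.15 and 1.91 CPM in naive cells. Naive cells already held many of these transcripts. Pcna, the sliding clamp, had 119, 130.2 and 147 CPM in WT CD62L- cells and 96.2, 93.2 and 87.8 CPM in naive cells, and Mcm2 and Mcm7, subunits of the replicative helicase, did not pass (adjusted p = 0.233 and 0.494). The licensing factor Cdt1 had 14.6, 13.2 and 12.4 CPM in WT CD62L- cells and 27.4, 30.5 and 31.6 CPM in naive cells, 2.23-fold lower (adjusted p = 2.24e-05). Gins2 was the other decrease, but 67.3% of its exon bases lie under Gse1 on the opposite strand, and in a fit of the 6 libraries only it missed the threshold (adjusted p = 0.0552). The E2F element TTCCCGCC, searched in the same way, was present for 4 of 30 replication genes (13.3%) and for 2.13% of all genes. Uhrf1 and Rrm1, the large subunit of ribonucleotide reductase, are 2 of the 4, and their windows are shown with the element in capitals.
Uhrf1 (chr17:56303257-56303336, plus strand): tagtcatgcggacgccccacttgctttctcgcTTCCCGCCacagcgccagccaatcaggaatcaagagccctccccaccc
Rrm1 (chr7:102441615-102441694, plus strand): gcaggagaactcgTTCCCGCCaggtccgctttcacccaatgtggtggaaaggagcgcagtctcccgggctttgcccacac
Inhibitors of the cell cycle were mixed, with 7 of 17 tested called higher and 2 lower (median log2 fold change 0.69). Cdkn1b (p27), which holds naive T cells in quiescence, fell 1.39-fold, and Cdkn2c (p18) rose to 36.3, 32.5 and 13.7 CPM in WT CD62L- cells, against 2.82, 1.62 and 0.751 CPM in naive cells.

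Glycolysis genes were mostly higher, 13 of 20 with 2 called lower (median log2 fold change 0.85). Tpi1, triose phosphate isomerase, had 127, 153 and 148 CPM in WT CD62L- cells and 25.8, 25.6 and 23.4 CPM in naive cells, and Pfkp, the platelet form of phosphofructokinase, had 395, 362 and 377 against 124, 139 and 114 CPM. Aldoc, an aldolase, had 22.6, 23.5 and 23.4 CPM in WT CD62L- cells and 1.7, 1.55 and 1.27 CPM in naive cells. One gene went steeply the other way. Pdk1 encodes a kinase that inhibits pyruvate dehydrogenase. It had 92.5, 83.9 and 79.2 CPM in WT CD62L- cells and 588, 501 and 550.2 CPM in naive cells. This was 6.41-fold lower (log2 fold change -2.68, SE 0.11, adjusted p = 3.21e-10). Slc2a1, the glucose transporter GLUT1, did not pass (adjusted p = 0.799). Pfkm, the muscle form of phosphofructokinase, fell (log2 fold change -0.73), but missed the threshold without either the first or the third library of each group (adjusted p = 0.0527 to 0.124). Subunits of oxidative phosphorylation and the citric acid cycle rose little, with 13 of 25 called higher and none lower and a median log2 fold change of 0.35. Cox5a, a subunit of complex IV, rose 1.67-fold.

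In amino acid, one-carbon and nucleotide metabolism, 11 of 28 genes were called higher and 2 lower (median log2 fold change 0.05). Psat1, an enzyme of serine synthesis, had 70.8, 82.3 and 98.6 CPM in WT CD62L- cells and 12.3, 12.3 and 15.3 CPM in naive cells, and Odc1, the first enzyme of polyamine synthesis, rose 4.05-fold. Srm, which makes spermidine, fell 2.08-fold, and Gart, an enzyme of purine synthesis, fell 1.74-fold, with 16.9% of its exon bases under a noncoding gene on the other strand. In sterol and fatty acid synthesis 6 of 26 genes were called higher and 7 lower (median log2 fold change -0.15). These were 23.1% and 26.9% of the list, against 16.9% and 13.2% of all genes tested. Scd2, a fatty acid desaturase, rose to 147, 206 and 202 CPM in WT CD62L- cells, against 31.2, 42.1 and 42.6 CPM in naive cells.

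Ribosome biogenesis went down while mitosis went up. Of 28 genes of this list, 18 were called lower and 1 higher (median log2 fold change -0.66). Nop56, a core protein of small nucleolar particles, had 116, 109 and 113 CPM in WT CD62L- cells and 299.8, 237 and 267 CPM in naive cells. Myc, the transcription factor that drives this programme, had 38.2, 49.3 and 47.7 CPM in WT CD62L- cells and 96.8, 76 and 76.6 CPM in naive cells and fell 1.85-fold (adjusted p = 0.000105). Polr1a and Polr1b, the large subunits of RNA polymerase I, fell 2.03-fold and 2.56-fold. The increase was Ddx21, a nucleolar helicase, by 1.39-fold. Ribosomal protein genes as a whole took 3.09, 3.37 and 3.29% of counts in WT CD62L- libraries and 3.82, 4.36 and 4.15% in naive libraries. These shares did not overlap, and a two-sided exact permutation test gave p = 0.1, the smallest value that 3 against 3 libraries allow.

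Interferon response genes were mostly lower. Of 39 genes, 31 were called lower and 4 higher (median log2 fold change -1.23). The summed level was 4163, 3705 and 3569 CPM in WT CD62L- libraries and 9839, 8864 and 8538 CPM in naive libraries. Gbp7, a guanylate-binding protein, had 58.7, 51.2 and 57.8 CPM in WT CD62L- cells and 400, 338 and 327 CPM in naive cells (6.35-fold lower, adjusted p = 1.77e-09). Oasl2 and Oas2, of the oligoadenylate synthetase family, had 5.04, 5.16 and 2.36 CPM and 1.82, 2.84 and 1.67 CPM in WT CD62L- cells, against 77.6, 76.7 and 78.3 CPM and 45.5, 46.4 and 70.6 CPM in naive cells. The RNA sensor Ddx58 (RIG-I) fell 2.74-fold, and the transcription factors Irf7 and Stat2 3.19-fold and 2.35-fold. The 4 higher genes were Ifi27, Isg15, Isg20 and Ifih1. Ifi27, a mitochondrial protein, had 139, 136 and 152 CPM in WT CD62L- cells and 109.7, 99 and 104 CPM in naive cells. The other higher calls depended on which libraries were used. Of 6 fits that each left out a library, Isg15 missed the threshold in 5 (adjusted p = 0.0505 to 0.145), Isg20, an exonuclease, in 4 (0.0513 to 0.1) and Ifih1, a sensor of double-stranded RNA, in 4 (0.0553 to 0.0971).

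Genes of this list are known to carry the interferon-stimulated response element, read here as 2 copies of GAAA with any 2 bases between them, on either strand. It was found in the 250 bases before the start of 15 of 28 listed genes with a promoter entry (53.6%), against 3.46% of all 27025 genes. With a match, 11 of 15 genes were called lower and 1 higher, with a median log2 fold change of -1.24. Without one, 11 of 13 were called lower and 2 higher, with a median of -1.12. The windows of 3 lower genes and of Isg15, a higher one, are shown on the gene's strand with the element in capitals.
Gbp7 (chr3:142530256-142530335, plus strand): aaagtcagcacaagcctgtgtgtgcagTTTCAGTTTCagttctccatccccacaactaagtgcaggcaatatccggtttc
Slfn8 (chr11:83020811-83020890, minus strand): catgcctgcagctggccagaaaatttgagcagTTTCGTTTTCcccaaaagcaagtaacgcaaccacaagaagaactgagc
Igtp (chr11:58199476-58199555, plus strand): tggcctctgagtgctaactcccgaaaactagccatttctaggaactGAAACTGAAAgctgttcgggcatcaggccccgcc
Isg15 (chr4:156200819-156200898, minus strand): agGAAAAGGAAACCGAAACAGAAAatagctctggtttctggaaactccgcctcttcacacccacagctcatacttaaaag
Slfn8, a member of the Schlafen family, had 42.3, 51.2 and 54.5 CPM in WT CD62L- cells and 252, 236 and 230.1 CPM in naive cells. Igtp, an interferon-inducible GTPase whose exons overlap those of Irgm2, had 354, 289 and 239.6 CPM in WT CD62L- cells and 1172, 1028 and 989.5 CPM in naive cells. Isg15, a ubiquitin-like protein with 3 overlapping copies of the element in its window, had 26.4, 31.9 and 20.1 CPM in WT CD62L- cells and 15.4, 18.6 and 17.9 CPM in naive cells.

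Genes of the Gimap family, GTPases that support lymphocyte survival, were lower in 5 of 8 cases and higher in 1 (median log2 fold change -0.64). Gimap5, whose loss in mice shortens T cell survival, was the member that rose, to 175, 171 and 143 CPM in WT CD62L- cells, against 89.9, 98.5 and 99.9 CPM in naive cells. Of 25 genes of the BCL2 family and of cell death, 11 were called higher and 3 lower (median log2 fold change 0.47). Survival genes went both ways. Bcl2 had 25.6, 35.4 and 29.6 CPM in WT CD62L- cells and 87.1, 90.8 and 106 CPM in naive cells, and Bcl2a1d had 97.9, 95.4 and 103 against 2.03, 2.56 and 1.92 CPM. Reads of the Bcl2a1 genes are shared between near-identical copies. Pmaip1 (NOXA), a pro-death protein of the BCL2 family, had 34.2, 46.9 and 62.2 CPM in WT CD62L- cells and 3.63, 0.467 and 0.369 CPM in naive cells. Cflar, an inhibitor of caspase 8, fell 1.65-fold. Mcl1, Bcl2l1 and Bcl2l11 did not pass (adjusted p = 0.121, 0.0876 and 0.454), except Mcl1 without the third naive library (0.0277) and Bcl2l1 with DESeq2 (0.0331).

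A list of extracellular ATP and adenosine genes also held others, such as Dpp4, Gpr174 and Gpr34. Of its 14 tested genes, 9 were called higher and 2 lower (median log2 fold change 0.81). P2rx7, an ATP-gated channel, had 153, 231 and 228 CPM in WT CD62L- cells and 3.63, 3.4 and 3.88 CPM in naive cells. Nt5e (CD73), which makes adenosine outside the cell, had 393, 363 and 375 CPM in WT CD62L- cells and 0.593, 0.393 and 0.849 CPM in naive cells (616-fold higher, adjusted p = 3.58e-12, log2 fold change 9.27, SE 0.24). Cd38, which breaks down NAD, had 39.3, 46.2 and 58.8 CPM in WT CD62L- cells and 1.62, 1.23 and 1.78 CPM in naive cells. Adora2a, the adenosine receptor, rose 4-fold. The lysophospholipid receptor Gpr34 had 0.356, 0 and 1.19 CPM in WT CD62L- cells and 16.1, 19.2 and 15.4 CPM in naive cells and fell (adjusted p = 0.00632). P2rx4 also fell (log2 fold change -0.63), but missed the threshold without the third naive library or without the first or the second WT CD62L- library (adjusted p = 0.0813 to 0.172).

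Among other regulators, 14 of 29 tested genes were called higher and 3 lower (median log2 fold change 0.95). Bhlhe40, a repressor that supports cytokine production, had 209.7, 258 and 446 CPM in WT CD62L- cells and 0.0765, 0.0246 and 0.787 CPM in naive cells. Hif1a, the oxygen-sensing factor, had 596, 664 and 755 CPM in WT CD62L- cells and 159, 143 and 138 CPM in naive cells. Klf13 and Zeb1 fell 2.47-fold and 1.64-fold, and Hoxa7 was lost, with no counts in WT CD62L- cells and 5.48, 7.23 and 6.28 CPM in naive cells. Prdm1 (Blimp-1), which opposes Bcl6, had 2.98, 0.979 and 0.722 CPM in WT CD62L- cells and 11.3, 8.94 and 12.8 CPM in naive cells. It did not pass in the fit of all 15 libraries (adjusted p = 0.0692) and passed with DESeq2 (0.0338), with voom (0.00166) and in a fit of the 6 libraries (0.00466). Of 24 genes of chromatin writers and erasers, 8 were called higher and 5 lower (median log2 fold change 0.06). Whsc1 (NSD2), a histone H3 methyltransferase, had 62.2, 56 and 60.4 CPM in WT CD62L- cells and 8.09, 5.24 and 6.77 CPM in naive cells, and Ezh2, the catalytic subunit of Polycomb complex 2, rose 3.01-fold. Tet1, which oxidises methylated cytosine, and Setd7 fell 2.27-fold and 2.15-fold.

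Of 15 tested clock genes, 3 were called higher and 3 lower (median log2 fold change -0.22). At 20% in each direction, this was near the 16.9% higher and 13.2% lower of all genes tested. Nr1d1 (REV-ERB alpha) had 0.208, 0.0332 and 0.0278 CPM in WT CD62L- cells and 2.72, 4.09 and 3.16 CPM in naive cells, and Cry1 fell 2.51-fold. The labels give no hour of collection, so time of day cannot be told apart from priming. Of 20 heat shock and stress genes, 7 were called higher and 3 lower, with a median log2 fold change of 0.21. Hspa5, the chaperone of the endoplasmic reticulum, rose 2.49-fold, the near-identical Hspa1a and Hspa1b rose 6.82-fold and 5.94-fold, and Dnaja1 fell 1.9-fold. The summed level of this list overlapped between the groups, at 5840 to 7130 CPM in WT CD62L- and 5337 to 6110 CPM in naive libraries.

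Markers of other cell types were lower in WT CD62L- than in naive libraries for red cells, B cells and CD8 or natural killer cells. Of 10 tested erythroid genes, 8 were called lower and none higher (median log2 fold change -3.35). The summed level of that list was 48.0, 102 and 78.7 CPM in WT CD62L- libraries and 614, 710.5 and 667 CPM in naive libraries, and Slc4a1 and Epb42 had no counts in WT CD62L- cells. The call of Epb42 was lost in 4 of 6 fits that left out a library (adjusted p = 0.0592 to 0.0717). Of 22 B cell markers, 15 were called lower and none higher (median log2 fold change -1.34), with summed levels of 693 to 803 CPM in WT CD62L- and 1062 to 1290 CPM in naive libraries. Most of that sum was Ighm. Cd79a, a chain of the B cell receptor, had 4.05, 3.12 and 3.39 CPM in WT CD62L- cells and 10.5, 12.6 and 11.9 CPM in naive cells. The CD8 and natural killer list summed to 39.2 to 47.8 CPM in WT CD62L- and 87.9 to 100.5 CPM in naive libraries, with Ncr1 at 0 in both groups. Its 1 higher gene of 9 tested was Klrb1c (NK1.1), with 22.7, 21.5 and 27.4 CPM in WT CD62L- cells and 0.411, 0 and 0 CPM in naive cells. Its lower genes were Prf1, Gzma, Cd8b1 and Klrd1, the last of which missed the threshold in 5 of 6 fits that left out a library (adjusted p = 0.0748 to 0.113). Myeloid markers did not separate the groups (26.1 to 34.4 CPM in WT CD62L- and 25.5 to 28.9 CPM in naive libraries). Of 17 tested, 3 were called higher and 2 lower (17.6% and 11.8%, against 16.9% and 13.2% of all genes tested). Clec9a had no counts in either group. The higher ones were Lyz2, Marco and Ccl22, and the lower ones Itgam and Csf1r, whose calls were lost in at least 1 fit that left out a library (adjusted p = 0.0523 for Itgam, and 0.0599 to 0.138 for Csf1r). Plasma cell markers were called higher for Irf4, Xbp1 and Jchain, of which activated T cells also express the first pair. Jchain missed the threshold in 5 of 6 such fits (adjusted p = 0.052 to 0.127). Col1a1 and Ccl21a, of a stromal list with 5 tested genes, were higher at up to 1.73 CPM, and none of the 2 neutrophil and 3 platelet genes tested was called. The part that other cells play in the lower levels of Prf1, Gzma, Cd8b1 and class II genes was not tested.

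**Figure D4:**
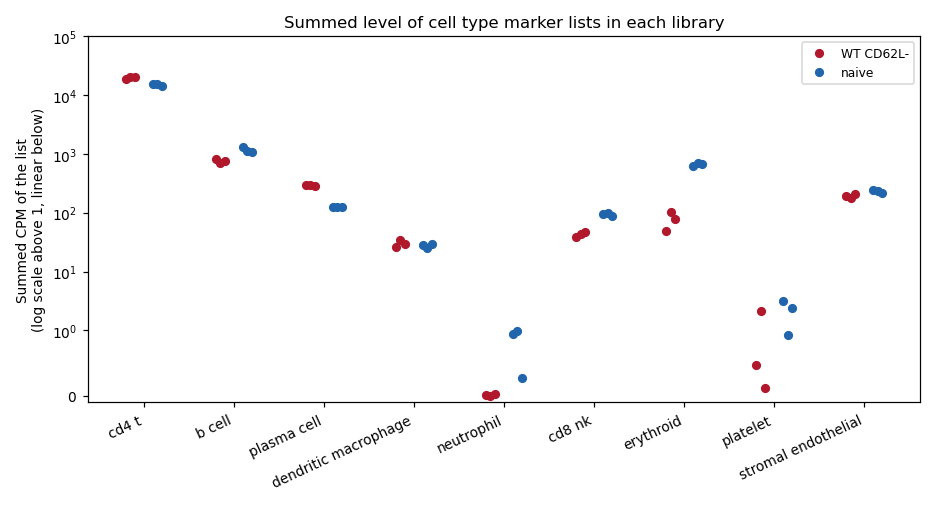
Summed CPM (y axis, log scale above 1 and linear below) of 9 cell type marker lists (x axis) in each of the 3 WT CD62L- libraries (red, left) and the 3 naive libraries (blue, right). The erythroid sum lies at 48.0 to 102 CPM in WT CD62L- and at 614 to 710.5 CPM in naive libraries.

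Within the same node and host, the CD44hi CD62L+ donor cells offer a comparison with WT CD62L- cells in which transfer and airway exposure are alike. It called 244 of the 19942 genes tested, 1.22%. Of 196 tested genes that were named here by a rule on the naive comparison, 32 differed between WT CD62L- and WT CD62L+ cells, and all 32 had been called against naive cells. Both comparisons share the WT CD62L- libraries. Among these 32 genes, most of those that had risen against naive cells had a level in WT CD62L+ cells between the other levels. Tigit averaged 373 ± 61.9 CPM in WT CD62L- cells, 45.6 ± 8.57 CPM in WT CD62L+ cells and 0.474 ± 0.266 CPM in naive cells (SD, n = 3 each). Vdr averaged 81.9 ± 4.52, 16.4 ± 6.34 and 0.0187 ± 0.0185 CPM in the same order, and P2rx7 204 ± 44, 86.4 ± 7.89 and 3.64 ± 0.237 CPM. Nrp1 and Id2 had risen too, yet CD62L+ cells held more of both. Nrp1, the semaphorin receptor neuropilin 1, averaged 142 ± 20.3 CPM in WT CD62L- cells, 276 ± 17.9 CPM in WT CD62L+ cells and 10.8 ± 0.988 CPM in naive cells, and Id2 averaged 147 ± 9.87, 209 ± 6.64 and 31.1 ± 1.77 CPM. Gbp7 ran the other way, lowest in CD62L+ cells, with 55.9 ± 4.1 CPM in WT CD62L- cells, 38.4 ± 6.79 CPM in WT CD62L+ cells and 355 ± 39.4 CPM in naive cells. The rest of the named genes that had risen were not called between the subsets. Izumo1r averaged 956 CPM in WT CD62L- and 957 CPM in WT CD62L+ cells. Icos averaged 554 and 688 CPM, and the mitosis gene Ccnb2 50.55 and 59.7 CPM, in the same order. Against CD62L- cells of Batf3-/- recipients the test called 10 genes, 0.0501% of those tested. Among them was Malt1, at 239 ± 30.7 CPM in WT CD62L- cells and 144 ± 8.28 CPM in Batf3-/- CD62L- cells.

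**Figure D5:**
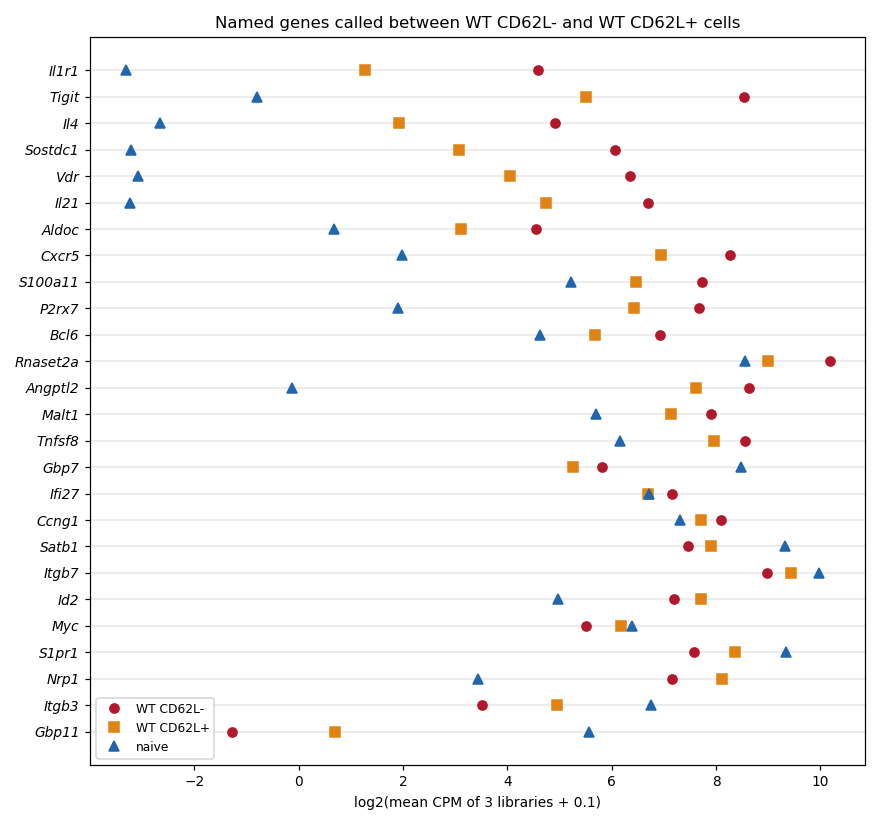
Log2 of the mean CPM plus 0.1 (x axis) of 26 of the named genes (rows) that were called between WT CD62L- and WT CD62L+ cells and averaged at least 20 CPM in WT CD62L- or naive cells. Red circles are WT CD62L- cells, orange squares WT CD62L+ cells and blue triangles naive cells, each the mean of 3 libraries.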

How the data were processed

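RNA of sorted cells was extracted with a micro-scale column kit, amplified in 13 cycles with a whole-transcriptome kit and made into libraries with a transposase, per the labels' protocols. The authors deposited raw read counts per gene. The submitters' processing notes name FastQC, Trimmomatic 0.36, STAR 2.7.3a, featureCounts of Subread 1.6.5 and the build mm10, and how strand was handled is not stated there, so reads of genes that overlap on opposite strands cannot be told apart.

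From these counts, genes were filtered with filterByExpr (minimum count 10), scaled by TMM and fitted with edgeR 4.0.16 (quasi-likelihood, robust) in R 4.3.3, with 1 term per group over all 15 libraries, so that the groups share 1 estimate of spread. Calls used a Benjamini-Hochberg adjusted p of 0.05. CPM are counts divided by the TMM-scaled library size in units of 1e6. Levels per length are counts per kilobase of exon, scaled to a sum of 1e6 in each library, without TMM. Where a group had no counts, a bound was set by putting 3 counts in that group, and a group total of 1 to 3 gave a ratio with a 95% counting interval. Promoter sequences are RefSeq's, build GRCm38.p6. The test was checked on simulated counts.

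The members and gene lists were chosen with earlier results of these data known. The rule for named genes took the sort genes and lineage regulators, the 3 most significant genes of each list in its main direction and 2 in the other, all called genes of lists with at most 5 calls, the 12 largest changes in each direction at 5 CPM or more with no overlap between groups, and the 8 largest gains and losses per length. Other list members named in the text are examples chosen after their values were seen. Some genes that the rule names are not reported here. Alternatives were DESeq2 1.42.0, limma 3.58.1 with voom and library weights, DESeq2's size factors, no filter, a stricter filter, the 6 libraries alone, a replicate block, a test against a 1.5-fold change, and leaving out each library.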

Additional observations from a re-analysis of the deposited data

How the results depend on the processing

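Under the alternatives run, no result changed direction. Between WT CD62L- and naive cells, 6004 genes were called, and 4726 to 5402 when single libraries were left out. DESeq2 called 7075, voom 6761, DESeq2's size factors 5974, no filter 5520, the stricter filter 6037 and the 6 libraries alone 5388. A test against a 1.5-fold change called 2731 genes, 1721 higher and 1010 lower, and moved 29 of 80 counts of list members by over 1.5 times: it left no higher call in oxidative phosphorylation or the interferon list, no call in the Gimap family, 11 higher calls in T cell receptor signalling and 9 lower calls in ribosome biogenesis. The replicate block called 6901, of which 5891 were also called without it. With the block, Ccr7 (adjusted p = 0.0314), Gzmb (0.0256), Prdm1 (0.0382), Btg2 (0.00271), Cd27 (0.0411), Il16 (0.0451) and Il2rg (0.00278) passed as well. Replicate numbers do not pair the samples by the labels. Deviations of same-numbered WT CD62L- and naive libraries correlated at 0.0508, 0.0263 and 0.0869, and at -0.0691 to 0.0166 for other numbers. Every library thus correlated best with its own number. The first library of both groups also had the lowest share of ribosomal RNA counts (4.33 and 4.62%). These are hints from the data and not from the design, and their cause was not tested. Low counts limit what can be said of genes under about 1 CPM.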
